A study of Mus musculus with 13 samples.

Results

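The classical cadherins Cdh1 (E-cadherin), Cdh2 (N-cadherin) and Cdh3 (P-cadherin), the intermediate filament gene Vim (vimentin) and the transcription factor genes Zeb1, Zeb2, Snai1, Snai2, Twist1 and Twist2 are described here in mouse mammary tumors that overexpress TSG101. The 10 genes were taken by their symbols from the 15213 genes of the deposited table, and all 10 are listed there. Whole tissue was sequenced for RNA from 10 tumors, taken from 6 females of the genotype MMTV-tTA TetO-Tsg101, and from the mammary glands of 3 FVB females that were wild type. The tumor-bearing females carried both transgenes: the tetracycline-controlled transactivator under the mouse mammary tumor virus promoter, which is active in the mammary epithelium, and an HA-tagged Tsg101 with a luciferase reporter under the tetracycline operator. The glands carried neither transgene, so that the presence of the transgenes and the state of being a tumor cannot be told apart in this comparison. In all, 3 of the females gave more than 1 tumor, and the age and the reproductive stage of the females behind the libraries are not given in the sources used here. The females are called mouse A to mouse F, and tumors 2 and 3 came from mouse B, tumors 5 and 6 from mouse D, and tumors 8, 9 and 10 from mouse F. The libraries held 6176269 to 16835397 reads on listed genes in the tumors and 11672487 to 23889042 in the glands, and the glands carried large amounts of milk protein transcripts, with a sum of 165000 to 305300 normalized cpm for 8 such genes beside 1385 to 76630 in the tumors.

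Cadherins are calcium-dependent adhesion proteins that join neighbouring cells at adherens junctions, where their inner ends bind catenins. E-cadherin holds luminal epithelial cells together, P-cadherin is known from basal and myoepithelial cells of the breast, and N-cadherin is best known from neural and mesenchymal cells. In an epithelial-mesenchymal transition (EMT), cells give up E-cadherin junctions and take on mesenchymal products such as vimentin, and the zinc finger proteins of the Snail and Zeb families and the basic helix-loop-helix proteins Twist1 and Twist2 can drive that program, the Snail and Zeb proteins by repressing the E-cadherin gene through E-boxes.

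The tumors carried E-cadherin transcript at levels that overlapped those of the glands, had more P-cadherin and N-cadherin, and less Zeb1 and Twist1 than the glands. Cdh3 rose to 83.2 ± 34.0 normalized cpm (SD, n = 10) from 15.7 ± 7.33 (SD, n = 3), and Cdh2 to 11.9 ± 3.91 from 5.12 ± 2.52, a call that was lost without gland 3. Zeb1 fell to 5.87 ± 1.88 from 24.1 ± 5.57, and Twist1 to 2.52 ± 1.58 from glands that lay between 9.51 and 12.55. The other 6 genes did not pass both limits used throughout, an adjusted p below 0.05 (limma, Benjamini-Hochberg over all genes tested) and a change of more than 2-fold. Normalized cpm are read counts scaled by the authors to a common library size (cpm), and log2 fold changes are of log2(normalized cpm + 1), a scale that understates the change of genes at low level. In whole-tissue RNA, fewer cells of a type and less RNA per cell cannot be told apart.

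Among the 7 genes that passed the filter on low values, 2 were called higher, beside 10.2% of the 11795 genes tested, and 1 was called lower, beside 6.99%. Snai1, Twist1 and Twist2 lay at 5 normalized cpm or less in most of the libraries and were tested in the same fit without the filter. In that fit, 10.5% of the 15213 listed genes were called higher and 10.1% lower, and of the 3 low genes Twist1 alone was called. Over the 10 genes the median log2 fold change came to -0.41, beside 0.01 for all listed genes in the fit without the filter. Over the 7 genes past the filter it was 0.69, so that its sign turned on the 3 low genes. Counts this small do not set the 10 genes apart from that background.

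**Figure D1:**
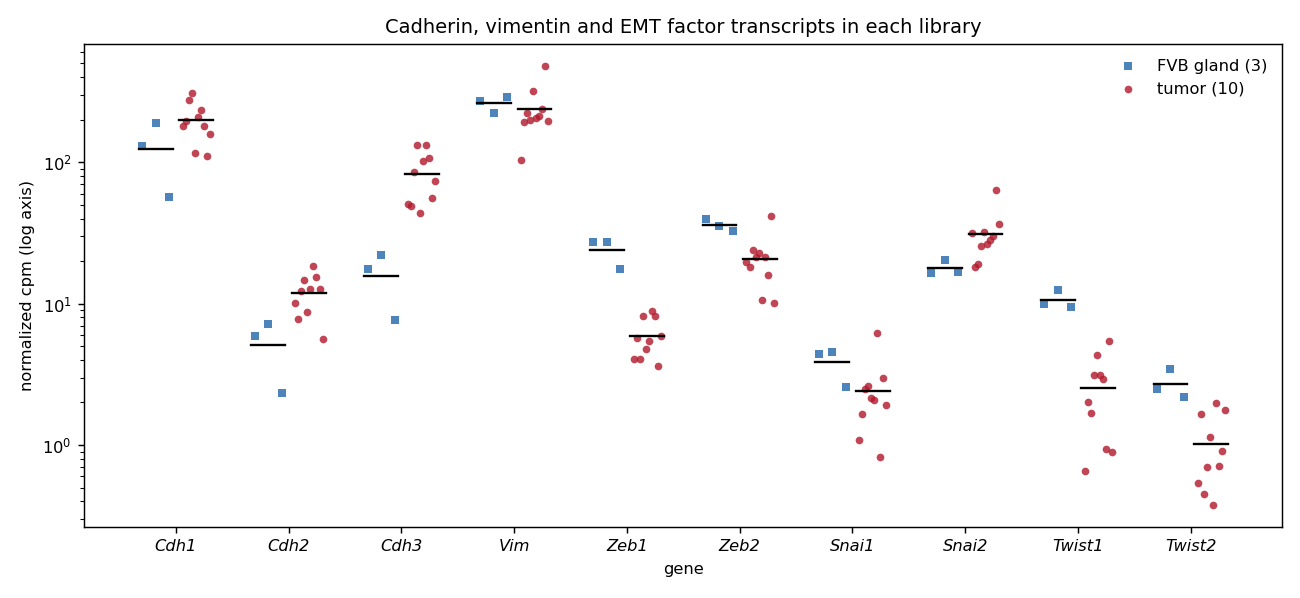
Normalized cpm (log axis) of each of the 10 genes in each library; blue squares are the 3 FVB glands, red circles the 10 tumors, and black lines the group means. The tumors lie above all 3 glands for Cdh3 and below all 3 for Zeb1, Twist1 and Twist2, while Cdh1 and Vim overlap.

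The Cdh1 gene lies on chromosome 8 between 106603350 and 106670247 in the GRCm38.p6 assembly. Its lowest tumor was at 111 normalized cpm, the median tumor at 189 and the highest at 311, and the 3 glands were at 131, 188 and 56.4. Only 5 of the 10 tumors lay above all glands and none lay below them. The log2 fold change of 0.75 (SE 0.35) had an adjusted p of 0.128 (limma, Benjamini-Hochberg). The glands differed widely, with gland 2 the highest and gland 3 the lowest. Without gland 3 the log2 fold change was 0.26 with an adjusted p of 0.557 (limma). Without gland 2 it was 1.12 with an adjusted p of 0.0503 (limma), past 2-fold and just over the limit of 0.05. The summed level of 12 luminal markers was 1808 normalized cpm in gland 3, beside 2711 and 3870 in glands 1 and 2 and between 1919 and 3403 in the tumors, and its part in the spread of Cdh1 was not tested. The keratins of luminal cells, Krt8 and Krt18, had log2 fold changes of 0.08 and 0.22 with adjusted p of 0.888 and 0.556 (limma).

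The Cdh3 gene is the upstream neighbour of Cdh1 on chromosome 8, from 106510852 to 106556911, with 46.4 kb between the pair. Cdh3 was at 43.8 normalized cpm in the lowest tumor, 79.4 in the median one and 133 in the highest, and at 17.6, 22.0 and 7.68 in the glands. All 10 tumors lay above all 3 glands, as they did for 11.4% of all listed genes. The log2 fold change was 2.34 (SE 0.37, adjusted p = 2.89e-04, limma). Gland 3 was again the lowest gland, and without it Cdh3 remained higher, by 1.92 on the log2 scale with an adjusted p of 0.00246.

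P-cadherin is normally a product of basal cells, and the markers of that layer were divided. Over all genes tested, 10.2% were called higher and 6.99% lower. Of 10 basal markers, 6 were called higher and 1 lower, and those that rose included Krt5 and Krt14, the paired keratins of basal epithelium, at log2 fold changes of 2.82 and 1.73 (adjusted p of 4.22e-04 and 0.0117, limma). The summed level of these markers ran from 1338 to 5631 normalized cpm in the tumors and from 537 to 1335 in the glands. Of 8 myoepithelial contractile markers, 6 passed the filter and all 6 were called lower, among them Acta2 (smooth muscle actin) with -4.32 and Myh11 (smooth muscle myosin) with -5.05 (adjusted p of 1.59e-05 and 6.34e-06, limma). The other 2 were called lower in the fit without the filter. The sum of all 8 was 114 to 345 normalized cpm in the tumors and 1228 to 2642 in the glands. The share of these cells in the level of Cdh3 was not tested.

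Cdh2 lay at a lower level. It was at 5.63 normalized cpm in the lowest tumor, 12.5 in the median and 18.6 in the highest, and at 5.87, 7.18 and 2.32 in the glands. Tumor 10 was below the 2 higher glands, and the other 9 tumors lay above all glands. The log2 fold change was 1.11 (SE 0.32, adjusted p = 0.0182, limma). This call rested on gland 3: without it the log2 fold change was 0.72 and the adjusted p 0.106. Gland 3 also had 4.35% of its reads on the ribosomal gene Rn45s, beside 0.324% and 0.296% in glands 1 and 2, the fewest reads of the glands and the highest adipocyte sum, and the part of these in its low cadherin levels was not tested. When libraries were scaled to 16 epithelial genes instead, it was 0.93 with an adjusted p of 0.0342, under the 2-fold limit.

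Ratios of genes within a library do not depend on its scaling, and they separated the cadherins further. Per kilobase of exon, Cdh3 stood at 0.253 to 0.604 of the level of Cdh1 in the tumors, with a median of 0.448, and at 0.118 to 0.138 in the glands. All 10 tumors exceeded the glands, and the 3 glands, gland 3 included, differed little in this ratio. Cdh2 stood at 0.0316 to 0.103 of Cdh1 in the tumors and at 0.0341 to 0.0402 in the glands, where 7 tumors lay above and 1 below all glands. N-cadherin was a small fraction of E-cadherin in tumors and glands alike.

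**Figure D2:**
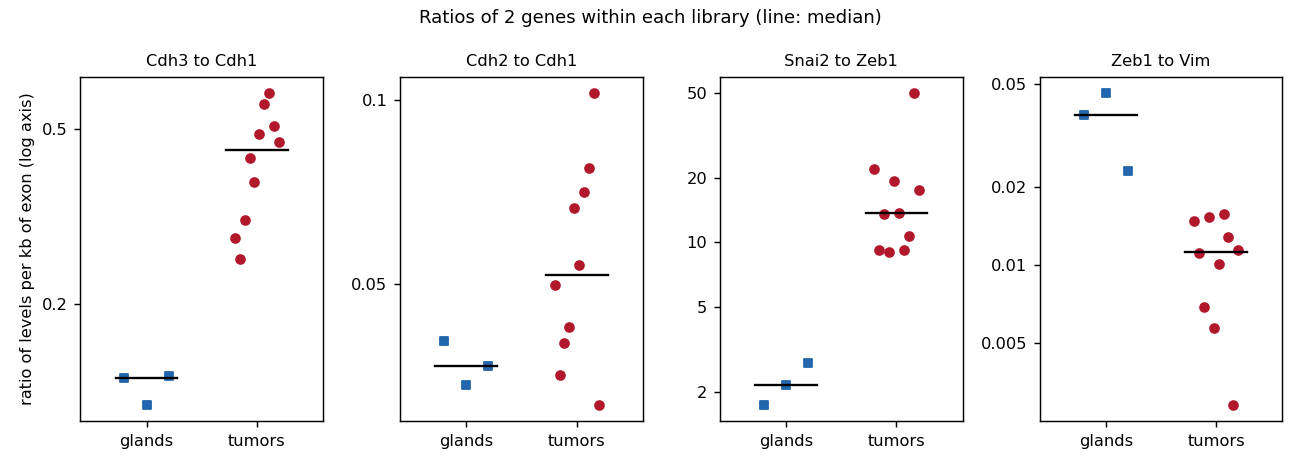
Ratio of the levels per kilobase of exon of 2 genes within each library (log axes), for the 3 glands (blue squares) and the 10 tumors (red circles), with the medians as lines. Cdh3 to Cdh1 and Snai2 to Zeb1 are higher in all tumors than in any gland, Zeb1 to Vim is lower in all tumors, and Cdh2 to Cdh1 overlaps.

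Vimentin is the filament protein of mesenchymal cells and also of macrophages, endothelium and fibroblasts. The Vim gene spans 13574311 to 13582826 of chromosome 2. Its lowest tumor was at 105 normalized cpm, the median at 209 and the highest at 480.3, and the glands were at 270.2, 224 and 289.7. The tumors lay on both sides of the glands, with 7 below all of them and 2 above. The log2 fold change was -0.23 (SE 0.32, adjusted p = 0.635, limma), and in plain cpm, without a normalization factor, it was 0.10 with an adjusted p of 0.834. Vim was the highest of the 10 genes per kilobase of exon in both groups, at 108 ± 45.6 in the tumors and 119 ± 15.5 in the glands.

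Markers of stromal cells that contain vimentin were called in both directions, where 10.2% of all genes tested were called higher and 6.99% lower. Of 12 fibroblast markers, 7 were called lower and none higher, and their sum was 410.3 to 1275 normalized cpm in the tumors and 4083 to 4572 in the glands. Col3a1, a fibrillar collagen of this list, fell by 3.65 on the log2 scale (adjusted p = 2.19e-05, limma), while Pdgfra and Dcn were not called, with log2 fold changes of 0.41 and -0.65 (adjusted p of 0.278 and 0.526, limma). Of 10 endothelial markers, 8 were called lower, including Pecam1 with -2.37 and Kdr with -3.02, and the sum was 97.8 to 198 in the tumors and 393 to 652 in the glands. Of 10 macrophage markers, 3 were called higher and none lower. Tumor 9, the tumor with the highest Vim, also had the highest macrophage sum, 4769 normalized cpm beside 1072 to 3043 in the other tumors and 593 to 1948 in the glands. The part of these cells in the level of Vim was not tested.

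Zeb1 and Zeb2 encode paired zinc finger and homeodomain repressors of epithelial genes. Zeb1 was at 3.64 normalized cpm in the lowest tumor, 5.57 in the median and 8.81 in the highest, and at 27.2, 27.5 and 17.7 in the glands. All 10 tumors were below all glands, as for 10.3% of listed genes. The log2 fold change was -1.89 (SE 0.25, adjusted p = 6.03e-05, limma), which stayed past both limits under all alternatives tried, with values from -2.15 to -1.58. Zeb1 was also lower relative to Vim in each tumor: the ratio per kilobase of exon was 0.00287 to 0.0157 in the tumors and 0.0231 to 0.0464 in the glands.

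Zeb2 lies on chromosome 2 from 44983512 to 45117442. It was at 10.1 normalized cpm in the lowest tumor, 20.5 in the median and 41.4 in the highest, and at 39.4, 35.4 and 32.8 in the glands. Of the tumors, 9 lay below all glands, and tumor 9 lay above them. The log2 fold change was -0.87 (SE 0.31) with an adjusted p of 0.04998 (limma), just under the limit of 0.05 and short of 2-fold, where 27.8% of the genes tested passed on adjusted p alone in either direction. Without tumor 9 the change was -0.99 with an adjusted p of 0.00916, and without gland 1 it was -0.80 with an adjusted p of 0.177. Reads of Zeb2 overlap those of its antisense gene Zeb2os, and no source used here says whether reads were counted by strand, so that the 2 cannot be told apart here.

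Snai1 (Snail) and Snai2 (Slug) encode related zinc finger repressors, of which Slug is also known from normal basal mammary cells. Snai1 was at 0.824 normalized cpm in the lowest tumor, 2.12 in the median and 6.19 in the highest, and at 4.41, 4.54 and 2.56 in the glands, on 7 to 59 reads in the tumors. Of the tumors, 7 lay below all glands and tumor 7 above them, and the log2 fold change of -0.58 (SE 0.32, adjusted p = 0.192, limma) was not called. Snai2, on chromosome 16 from 14705852 to 14709395, was at 18.2 in the lowest tumor, 29.3 in the median and 63.7 in the highest, and at 16.4, 20.5 and 16.8 in the glands. Of the tumors, 8 were above all glands and the other 2 were within their range. Its log2 fold change of 0.69 (SE 0.28) had an adjusted p of 0.0792 (limma), and it was not called. In plain cpm it was 1.0018 with an adjusted p of 0.00544, past both limits, so that 3 of the 10 genes were higher there instead of 2.

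Slug was the most abundant of the 6 factors per kilobase of exon in the tumors, at 15.4 ± 6.31, and its range did not meet that of any other factor. Relative to Zeb1 it stood at 9.03 to 50.2 in the tumors and 1.73 to 2.73 in the glands, so that all 10 tumors exceeded all glands. Relative to Snai1 it stood at 3.67 to 29.5 in the tumors and 2.98 to 5.27 in the glands, and 9 tumors were above.

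Twist1 and Twist2 encode near relatives of the basic helix-loop-helix class, both known from mesenchyme. Twist1 was at 0.660 normalized cpm in the lowest tumor, 2.47 in the median and 5.46 in the highest, and at 9.89, 12.55 and 9.51 in the glands. All 10 tumors lay below all glands, as for 10.3% of listed genes. Its log2 fold change was -1.85 (SE 0.37, adjusted p = 0.00154, limma), and all alternatives kept it past both limits. The counts behind it were 6 to 67 reads in the tumors and 78 to 243 in the glands, above the floor of 3 reads that a count of 0 allows.

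Twist2 was at 0.378 normalized cpm in the lowest tumor, 0.808 in the median and 1.99 in the highest, and at 2.48, 3.46 and 2.19 in the glands. Here too all tumors were below all glands, as for 10.3% of listed genes. The counts were 4 to 19 reads in the tumors and 18 to 67 in the glands. The adjusted p was 0.0142 (limma), where 31.3% of listed genes passed on adjusted p alone in either direction, but the log2 fold change of -0.91 (SE 0.26) was short of 2-fold. On counts, edgeR gave -1.43 with an adjusted p of 0.0224, and with a pseudocount of 0.5 limma gave -1.15 with 0.0179, both past 2-fold. Without gland 2 the adjusted p was 0.0814 (limma). An antisense gene, Gm29100, overlaps Twist2, and its reads cannot be told apart without strand.

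The promoters of the factor genes are shown because the Snail, Zeb and Twist proteins bind E-boxes, and the factor genes can themselves hold them. From the RefSeq table used here (GRCm38.p6), 8 promoters of 5 of the 10 genes were searched (Vim, Zeb2 with 4 starts, Snai1, Twist1 and Twist2), each running from 250 bases before to 50 bases after the start, and those of the other 5 genes were not analysed here. The E-box CANNTG, which reads the same on both strands, stands in 72.3% of the 32851 promoters of the table, and the form that the Snail and Zeb proteins prefer, CACCTG or its reverse CAGGTG, stands in 20.2%. The promoters of Snai1 (chr2:167537945-167538244) and of Twist1 (chr12:33957421-33957720) and Twist2 (chr1:91801211-91801510) are printed 5′ to 3′ on the plus strand, the coding strand of each, with the E-box in capitals. The Twist1 and Twist2 windows are shown because both genes lay lower in all tumors than in any gland, and the Snai1 window because it holds the motif.
Snai1: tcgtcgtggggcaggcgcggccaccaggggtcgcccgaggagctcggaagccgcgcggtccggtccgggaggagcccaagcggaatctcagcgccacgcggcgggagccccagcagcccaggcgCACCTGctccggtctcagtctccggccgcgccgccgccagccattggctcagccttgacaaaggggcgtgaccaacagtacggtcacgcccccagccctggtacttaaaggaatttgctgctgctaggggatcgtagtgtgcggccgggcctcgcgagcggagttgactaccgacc
Twist1: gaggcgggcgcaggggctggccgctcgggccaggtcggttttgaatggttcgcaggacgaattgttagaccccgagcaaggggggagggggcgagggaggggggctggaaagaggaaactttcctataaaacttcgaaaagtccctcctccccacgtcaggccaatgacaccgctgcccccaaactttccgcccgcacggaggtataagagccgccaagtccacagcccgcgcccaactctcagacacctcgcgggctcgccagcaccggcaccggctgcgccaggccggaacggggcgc
Twist2: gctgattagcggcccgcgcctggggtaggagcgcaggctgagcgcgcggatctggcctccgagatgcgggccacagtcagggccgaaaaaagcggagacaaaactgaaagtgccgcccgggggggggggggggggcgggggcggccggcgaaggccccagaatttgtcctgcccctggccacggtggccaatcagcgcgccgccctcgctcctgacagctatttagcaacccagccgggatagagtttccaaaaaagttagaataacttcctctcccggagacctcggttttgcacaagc
The Snai1 window holds 1 E-box, of the CACCTG form, and those of Twist1 and Twist2 hold none, as do the windows of Vim and Zeb2. A match or its absence describes the letters of these windows and says nothing of binding.

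**Figure D3:**
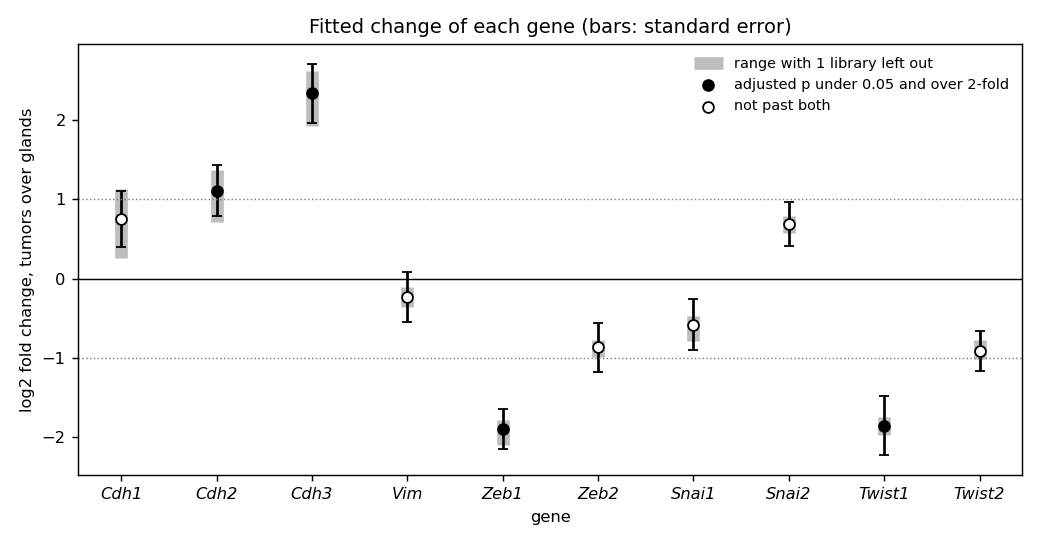
Log2 fold change of tumors over glands for each gene from limma, with the standard error as bars and, in grey, the range of values when 1 library at a time was left out; filled circles passed both limits and dotted lines mark 2-fold. Cdh3, Zeb1 and Twist1 stay beyond 2-fold throughout the grey range, and that of Cdh2 reaches under it.

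Several lists of stromal markers were lower beside Zeb1 and Twist1, which are known from fibroblasts. The mean summed level of the fibroblast list differed by -2.38 on the log2 scale between tumors and glands, with 5 of its 12 genes not called. Without its 3 collagens, which were set aside after the values were seen, the sum was 162 to 751 normalized cpm in the tumors and 552 to 1210.0 in the glands, a difference of -0.83 with overlapping ranges. The sum of 10 adipocyte markers was 135 to 598 normalized cpm in the tumors and 5047 to 12830 in the glands, and all 10 were called lower in the fit without the filter. Adipoq and Plin1, which encode adiponectin and the coat of lipid droplets, had log2 fold changes of -6.68 and -6.43 (adjusted p of 7.90e-06 and 2.81e-06, limma). The same difference was -2.04 for the endothelial list, -0.29 for 8 pericyte markers, of which 1 was called lower, and 1.05 for the macrophage list. For 10 lymphocyte markers it was -3.54, with 8 called lower in the fit without the filter, and their sum was 18.7 to 159.6 normalized cpm in the tumors and 680.1, 29.9 and 704 in the 3 glands. The part of stromal cells in the lower Zeb1 and Twist1, and in the values of Zeb2 and Twist2, was not tested.

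In order of level per kilobase of exon, the glands ran from Vim over Cdh1, Snai2 and Twist1 to Zeb1, Cdh3, Zeb2, Snai1, Cdh2 and Twist2. The ranges of Zeb1 and Cdh3, of Cdh3 and Zeb2 and of Cdh2 and Twist2 overlapped in the glands. The tumors ran from Vim over Cdh1, Cdh3 and Snai2 to Cdh2, Zeb2, Twist1, Snai1, Zeb1 and Twist2. In the tumors the range of each gene overlapped that of the next, except between Snai2 and Cdh2. Twist1 stood at 6.54 ± 1.02 in the glands, above Zeb1, Cdh3 and Zeb2, and at 1.55 ± 0.970 in the tumors.

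Among the tumors, the genes varied differently. The highest tumor exceeded the lowest 2.42-fold for Zeb1, 2.80-fold for Cdh1 and 8.28-fold for Twist1. The 3 tumors of mouse F differed by 1.94 on the log2(normalized cpm + 1) scale for Zeb2 and by 1.77 for Twist1, more than the means of the 6 mice did, with ranges of 0.44 and 1.496. Tumor 9 of mouse F had the highest Vim, Snai2, Zeb2 and Twist1 and the lowest Zeb1 and Cdh1 of the 10 tumors. In this library 27.4% of the reads fell on the ribosomal gene Rn45s, beside 0.456% to 9.32% in the other tumors. Whether that moved these genes was not tested. With the reads summed per mouse, Cdh2, Cdh3, Zeb1 and Twist1 were still past both limits.

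**Figure D4:**
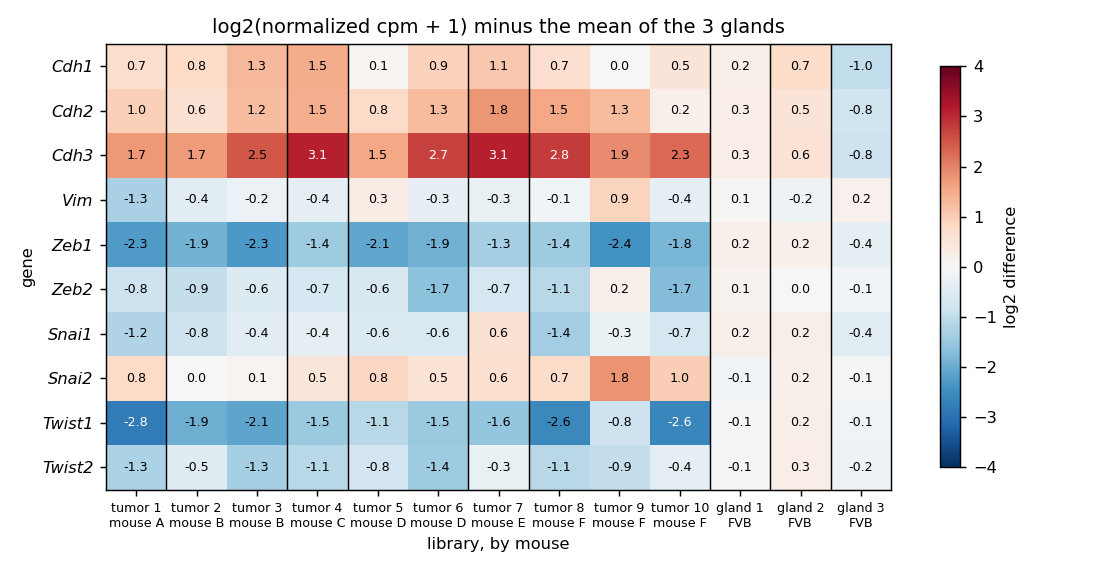
Level of each gene in each library as log2(normalized cpm + 1) minus the mean of the 3 glands, with tumors ordered by mouse and black lines between mice; red is higher and blue lower. Cdh2, Cdh3 and Snai2 lie above the gland mean in all 10 tumors, Snai2 by as little as 0.03. Zeb1, Twist1 and Twist2 lie below it in all 10. Tumor 9 of mouse F stands at 0.88 for Vim and 1.78 for Snai2.

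The other genes of the adherens junction are given beside the shares over all genes. Of 14 catenins, nectins and their partners past the filter, 1 was called higher and none lower, beside 10.2% and 6.99% of all genes tested, with a median log2 fold change of 0.52 beside 0.01. The called gene was Nectin1, an immunoglobulin-like adhesion protein, with 1.56 (SE 0.54, adjusted p = 0.0447, limma). Beta-catenin (Ctnnb1), which binds the inner end of cadherins, was added after its values were seen. It stood 0.68 higher on the log2 scale (adjusted p = 0.0239, limma), under 2-fold, where 27.8% of genes tested passed on adjusted p alone. For Ctnnb1, 10 of 10 tumors lay above all glands, as for 11.4% of listed genes. Of 6 other cadherins listed, 3 passed the filter: Cdh24 was called higher with 1.09, and Cdh5, the cadherin of endothelium, and Cdh11, that of mesenchyme, were called lower with -3.16 and -1.14 (adjusted p of 0.0127, 3.30e-04 and 0.0275, limma). In the fit without the filter, 2 of the 6 were higher and 4 lower, where Cdh10 had 1.98, Cdh13 -2.41 and Cdh19 -1.18 (adjusted p of 0.00162, 3.98e-04 and 0.00139, limma).

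Genes of the epithelial state were called in both directions. Of 27 past the filter, 6 were higher and 2 lower, beside 10.2% and 6.99% of all genes tested. Their median log2 fold change was 0.27. The largest rises were those of Grhl3 and Klf4, transcription factors of the epidermal barrier, with log2 fold changes of 3.57 and 2.48 (adjusted p of 8.31e-06 and 1.75e-04, limma). The falls were those of Elf5, the factor of the secretory alveolar lineage, with -1.68, and Tjp3, a tight junction scaffold, with -1.23 (adjusted p of 0.0251 and 0.00882, limma). Beside them, 8 of 10 squamous markers were called higher in the fit without the filter and none lower, with sums of 690 to 3815 normalized cpm in the tumors and 10.9 to 37.6 in the glands.

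Of 27 mesenchymal products past the filter, 4 were called higher and 11 lower, beside 10.2% and 6.99% of all genes tested. Their median log2 fold change was -0.72. Those that fell were led by Acta2 and by Col3a1, with -4.32 and -3.65 (adjusted p of 1.59e-05 and 2.19e-05, limma). Among those that rose was Cd44, a hyaluronan receptor, with 3.52 (adjusted p of 1.58e-07, limma). Cd44 is also known from basal and squamous epithelium. Its lowest tumor was at 266 normalized cpm, while the glands were at 38.5, 21.0 and 33.9.

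The next 3 lists stand beside the shares over all genes: 10.2% higher and 6.99% lower past the filter, and 10.5% and 10.1% without it. Of 13 further EMT factors past the filter, 3 were called higher and 1 lower, with a median of 0.09. The forkhead factors Foxq1 and Foxc1 rose by 2.88 and 1.53 on the log2 scale, and Prrx1, a homeobox factor of mesenchyme, fell by 1.64 (adjusted p of 2.95e-05, 8.26e-04 and 7.89e-04, limma). In the fit without the filter, which adds factors at low level, 6 of 22 were higher and 3 lower, among them Foxc2, a relative of Foxc1, with 2.08 and the T-box factor Tbx2 with -1.61 (adjusted p of 8.16e-05 and 0.00124, limma). Among 16 corepressors and regulators of protein turnover, 2 were higher and none lower: Pak1, a kinase that acts on Snail, with 1.55, and Fbxl5, a ubiquitin ligase subunit, with 1.11 (adjusted p of 7.78e-05 and 0.029, limma). Among 13 genes of the TGF-beta axis, whose signals induce these factors in many epithelia, none was higher and 2 were lower: the ligand Tgfb2 with -2.07 and the receptor Tgfbr2 with -1.09 (adjusted p of 0.00231 and 3.26e-04, limma).

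**Figure D5:**
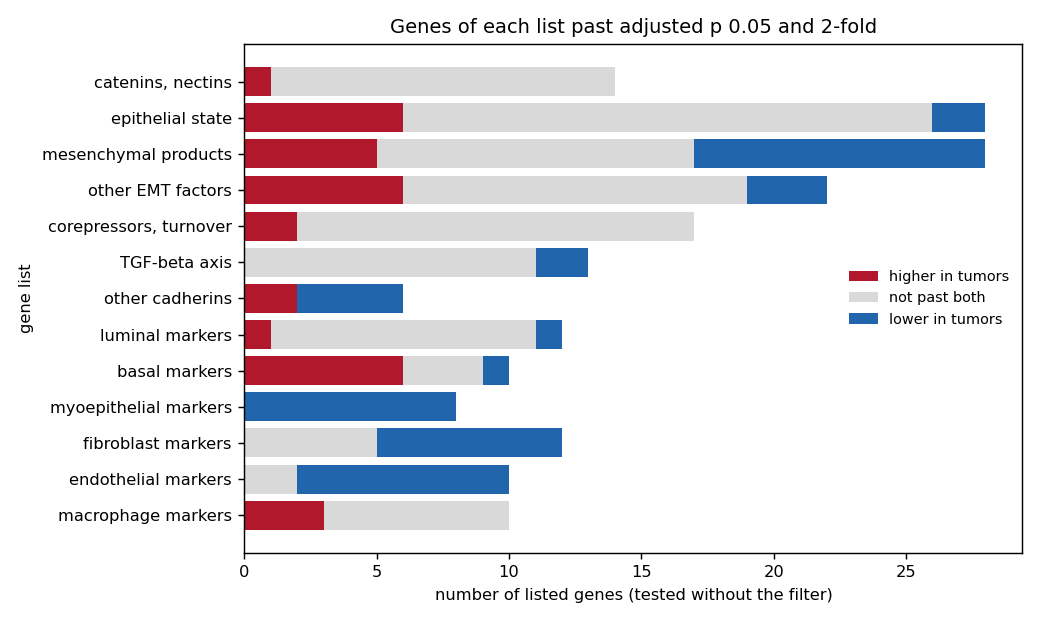
Number of listed genes in each gene list that were called higher (red) or lower (blue) in the tumors, or neither (grey), in the fit without the filter. Fibroblast, endothelial and myoepithelial markers are mostly lower, and basal markers mostly higher.

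The genes whose level followed each of the 7 more abundant genes most closely over the 10 tumors were found by the smallest root mean square difference of log2 level after both were centred. For Cdh3 they were Trabd2b and Col17a1, a collagen of hemidesmosomes, with 0.181 and 0.182, where the SD of Cdh3 itself was 0.597. For Cdh1 they were Inka2 and Ninl with 0.148 and 0.154, and for Cdh2 Mtcl1 and Lrrc8c with 0.146 and 0.197. For Zeb1 they were Slc25a37 and Atrn with 0.141 and 0.170, for Zeb2 Abcc3 and Ifi204 with 0.198 and 0.231, and for Snai2 Fndc3a and Ssbp2 with 0.149 and 0.158. For Vim they were Eml1 and Plaur, the urokinase receptor, with 0.285 and 0.313. These are the closest among 11795 genes over 10 tumors that share mice, and are given as a description.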

How the data were processed

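Total RNA of flash-frozen tumors and glands was sequenced as 75 bp paired-end reads. The authors mapped these to mm10 with Rsubread (v2.0.0), used featureCounts for counts per gene and edgeR (v3.28.0) for normalization; the strand setting is not given in the sources used here. The deposited values have the unit of a signal: read counts scaled to an effective library size, as cpm. All values (100%) came out within 0.01 reads of a whole number once divided by what 1 read is worth in that library, so that reads were recovered. Samples were grouped by their labels into 10 tumors and 3 glands.

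limma (3.58.1, R 4.3.3) was fitted to log2(normalized cpm + 1) of the 13 libraries, with condition alone in the model and a variance trend, after leaving out 3418 genes at 5 normalized cpm or less in most of the libraries, as the methods of the study filter. An adjusted p below 0.05 (Benjamini-Hochberg) and a change of more than 2-fold were required. Members left out by the filter were tested without it. The fit was also run on simulated counts of independent libraries, with true changes larger than those of Cdh2, Zeb2, Snai2 and Twist2. That run does not cover changes as small as theirs or tumors that share a mouse. Alternatives used edgeR 4.0.16, DESeq2 1.42.0, other scalings, the mouse as a block, reads summed per mouse and libraries left out in turn. Exon lengths are those of the GENCODE basic annotation, and coordinates and promoters those of RefSeq. Replicates are separate samples of the labels, and tumors of the same mouse are not independent, so p-values measure the spread between these samples. The floor of 3 reads, at a confidence level of 95%, came to 0.141 to 0.683 normalized cpm in the tumors and 0.129 to 0.366 in the glands, and covers counting error only. The smallest chi-square per gene between 2 libraries was 20.9, so none appeared to be listed again under another name. The labels name 2 sequencing sites without saying which library came from which, while the methods of the study name the UNMC core facility. No batch could therefore be assigned.

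The members and lists were chosen with earlier results of these data known. The genes named beside the members were, by rule, the 2 largest rises and falls among called genes of each list that passed the filter, the first 2 of each marker list cited, and the 2 nearest patterns of each member; Ctnnb1 and the called genes under the filter (Cdh10, Cdh13, Cdh19, Foxc2 and Tbx2) are exceptions, and 1 gene that the rule names is not reported here.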

Additional observations from a re-analysis of the deposited data

Results flagged for a closer look

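In 3 of the 10 genes, a tumor stood apart from the other 9 in normalized cpm. Its gap to the nearest tumor, as a share of the group's range, was above the 95% critical value of Dixon's test. Chance gives such a gap in about 1 of 20 groups of independent, normally distributed values, and tumors of the same mouse are not independent. On the log2(normalized cpm + 1) scale of the fits, the 3 gaps are smaller shares of the range and fall short of that value. Zeb2 was at 41.42 normalized cpm in tumor 9, where the next tumor was at 24.05, a gap of 0.554 of the range. Snai2 was at 63.73 in the same tumor, with the next at 36.31 and a gap of 0.602. Snai1 was at 6.187 in tumor 7, with the next at 2.959 and a gap of 0.602. Without tumor 9 the log2 fold change of Snai2 was 0.57 with an adjusted p of 0.0481 (limma), and without tumor 7 that of Snai1 was -0.71 with an adjusted p of 0.045 (limma), both under 2-fold.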

How the results depend on the processing

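Over the 10 genes and 25 alternatives, 238 values kept their direction and their side of the limits, 7 went past them, 4 fell short and 1 changed sign, that of Vim in plain cpm (0.0959). Zeb1 and Twist1 stayed past both limits in all 25. In plain cpm, where the median over all genes stood at 0.33 on the log2 scale instead of 0.01, 28 genes of the pathway lists were higher instead of 17, and over all genes 1864 were higher and 495 lower instead of 1204 and 825. Scaled to epithelial genes (median -0.22), 1 of the 10 genes was higher instead of 2, Cdh2 being short of 2-fold, and 1273 of all genes were lower. Without the filter 1538 of all genes were lower. With 1 library left out in turn, the 10 genes had 1 to 2 higher and 2 to 3 lower, where the value of 1 is that without gland 3. The replicate numbers did not pair the samples (correlations of -0.58, 0.04 and -0.66 between a tumor and the gland of the same number). With the replicate block, on 3 tumors and 3 glands, 0 of the 10 genes were higher and 2 lower (Zeb1 and Twist1), and over all genes 362 were higher and 182 lower; there Cdh3 had 1.97 with an adjusted p of 0.127 and Cdh2 0.94 with 0.415 (limma). At low depth, values of Twist2 and Snai1 rest on few reads, down to 4 and 7 in a tumor.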
